A study of Mus musculus with 6 samples.

Results

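The 39 genes described here act in mitosis and in the G2 phase that precedes it, and were taken by a list of gene symbols. All 39 symbols matched a single Ensembl identifier among the 57132 in the table through GENCODE mouse release 39. They were followed in mouse bone marrow cultures that were grown into dendritic cells with GM-CSF at 15 ng/mL, from female C57BL/6 mice aged 6 to 8 weeks. The cultures had dialyzed serum and either 100 nM queuine (100Q) or no added queuine (0Q), and RNA was taken on day 5 for mRNA sequencing, with 3 libraries per group. Both groups shared the strain, sex, serum and cytokine. The protocols speak of plating in triplicate and do not tie wells to animals, so p-values cover only the spread between these wells, which may be technical. The series title names cell proliferation among its subjects, and the comparison asks whether the mRNAs of dividing cells differed with queuine supply.

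Queuine is a base that mammals take from diet and gut bacteria and place at the first anticodon base of certain tRNAs, those that carry Asn, Asp, His or Tyr, where it becomes queuosine. Cells that enter mitosis switch on a shared set of genes late in the cell cycle. Cyclin B with the kinase Cdk1 starts mitosis, the kinases Plk1, Aurora A and Aurora B build the spindle and correct its attachments, the kinetochore ties chromosomes to microtubules, and a ubiquitin ligase with its coactivator Cdc20 ends the phase by destroying cyclin B. In marrow cultures these transcripts come mainly from cells that are still dividing, and mature dendritic cells and neutrophils have left the cycle. Which cell types were dividing here was not tested. In bulk RNA, fewer dividing cells and less of these mRNAs per dividing cell cannot be told apart.

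The 100Q libraries held between 4484785 and 19386533 counts, replicate 3 being the deepest of all, and the 0Q libraries between 3675918 and 6755367. Of these, 11282 to 50390 per 100Q library and 8836 to 17397 per 0Q library fell on the members. Of the dendritic cell markers, Itgax (CD11c) ranged over 123 to 149.996 CPM in 100Q, against 67.6 to 115 CPM in 0Q, while Zbtb46, a defining transcription factor of classical dendritic cells, had only 1.14 to 3.16 CPM in 100Q, against 0.556 to 1.83 CPM in 0Q. Over the 11 dendritic markers 7 estimates lay over 0 and 4 under it, among them Cd86 at -0.94 and Batf3 at -0.49, with a median of 0.08, and the summed levels overlapped at 1062 to 1178 CPM in 100Q, against 1017 to 1185 CPM in 0Q. Markers of granulocytes and their precursors were present, with summed levels over 10 genes of 9805 to 11735 CPM in 100Q, against 11673 to 14418 CPM in 0Q. Of these 10 genes 9 had log2 fold changes below 0, 3 had an unadjusted p under 0.05 and 0 passed the test. Of the 11 dendritic markers 2 had an unadjusted p under 0.05 and 0 passed, and 2.93% of all tested genes had such a p. All 5 tested markers of mast cells and basophils had an estimate under 0, their median was -0.40 and 0 passed, and the list summed to 202 to 244 CPM in 100Q, against 221 to 333 CPM in 0Q. The T cell marker Cd3e and the erythroid factor Klf1 had 0 counts in all 6 libraries. The 8 monocyte and macrophage markers summed to 18774 to 22525 CPM in 100Q, against 18728 to 20924 CPM in 0Q. Lyz2 made up most of this, at a mean of 18473 CPM in 100Q and 17825 CPM in 0Q. Of the 8 estimates 5 lay over 0 and 3 under it, with a median of 0.04, and 0 passed. The part that granulocytes, mast cells, basophils, monocytes and macrophages have in the levels below was not tested.

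None of the mitosis and G2/M genes passed the test of 100Q against 0Q, and for most of them the groups differed by less than the libraries within a group. All 39 members passed the filter on low counts, and 0 of 39 reached an adjusted p under 0.05 by edgeR's quasi-likelihood test, against 0% of the 10554 genes tested. The smallest adjusted p over the members was 0.999. At an unadjusted p under 0.05 the count was also 0 of 39, against 2.93% of all tested genes, and it was 0 of 39 by DESeq2 and by limma-voom too, against 3.37% and 2.86% of the genes. Estimates lay above 0 for 18 members and below 0 for 21. Their median log2 fold change was -0.01, and that of all tested genes 0.00. The estimates ran from -0.47 for Ect2 to 0.39 for Tacc3, and all 39 lay within 1.5-fold of no change. For 35 members the difference between group means was smaller than the pooled SD of the libraries, and the exceptions were Ccnb1, Aurkb, Tacc3 and Ect2. The 3 libraries of one group lay wholly on one side of the other for 1 member, Aurkb, against 8.24% of all tested genes. No member had the 100Q libraries above, an order that 4.41% of all genes showed.

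Added over the members, 100Q replicates 1, 2 and 3 reached 2436, 2376 and 2663 CPM, against 2763, 2453 and 2455 CPM for 0Q replicates 1, 2 and 3. The sums overlapped, with the highest in 0Q replicate 1 and the lowest in 100Q replicate 2. The sum averaged 2492 ± 151 CPM over the 100Q libraries, against 2557 ± 179 CPM over the 0Q libraries (SD, n = 3 each). On the TMM-scaled totals these sums correspond to 0.238% to 0.266% in 100Q and 0.245% to 0.276% in 0Q. They are not shares of a library's raw counts. Without 0Q replicate 1 the difference of the means was 37.9 CPM, higher in 100Q, whereas with all libraries it was -65.1 CPM. With all libraries and library totals alone in place of TMM the difference was -0.0192 CPM. Each gene was then set against its own mean over the 6 libraries. In 100Q replicates 1, 2 and 3 there were 13, 19 and 30 of the 39 members above their mean, and in 0Q replicates 1, 2 and 3 there were 21, 22 and 19. The members thus ran high together in 100Q replicate 3, the deepest library, and low together in 100Q replicate 1, and the distance between these libraries of the same group was larger than that between the groups. The median deviation was -0.08, -0.02 and 0.12 on the log2 scale in the 100Q libraries and 0.11, 0.01 and 0.00 in the 0Q libraries, while over all genes at 10 CPM or more it stayed between -0.01 and 0.03. Whether depth has a part in the high value of 100Q replicate 3 was not tested.

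**Figure D1:**
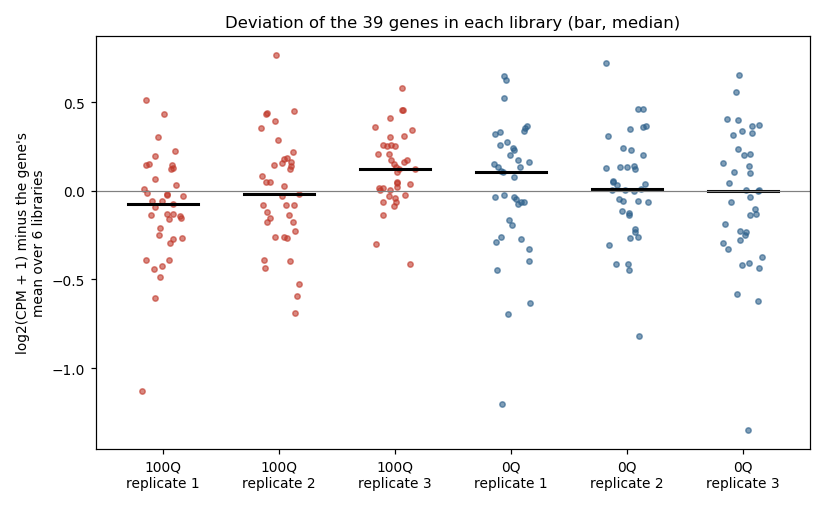
Each point is 1 of the 39 genes, drawn as its log2(CPM + 1) in a library minus its mean over the 6 libraries, and the black bar is the median. The medians lie highest in 100Q replicate 3 and 0Q replicate 1 and lowest in 100Q replicate 1, so the libraries of the groups overlap.

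The entry into mitosis is driven by Cdk1 and cyclin B, and the mRNAs of Cdk1 and Ccnb1 were abundant and close in the groups. Cdk1, the mitotic kinase (ENSMUSG00000019942, GRCm39 chromosome 10, 69170976 to 69236595), had 404, 324 and 349 CPM in the 100Q libraries, against 408, 350.2 and 367 CPM in the 0Q libraries. Ccnb1, which encodes cyclin B1 (ENSMUSG00000041431, GRCm39 chromosome 13, 100915153 to 100923116), had 173, 159.7 and 185 CPM in the 100Q libraries, against 211, 181 and 176 CPM in the 0Q libraries. In both genes the libraries of the groups interleaved, with 0Q replicate 1 the highest. Their log2 fold changes for 100Q over 0Q were -0.06 (SE 0.13) and -0.13 (SE 0.14), neither past the test (edgeR adjusted p = 0.999 for every member). Ccna2, cyclin A2, which acts from S phase into early mitosis, had 31.9, 26.8 and 38.8 CPM in the 100Q libraries, against 20.6, 44.99 and 37.5 CPM in the 0Q libraries. The spread within 0Q spanned that of 100Q, and the estimate was -0.07 (SE 0.29). The other B-type cyclin gene, Ccnb2, had 28.3 ± 1.21 CPM with queuine (100Q) against 30.2 ± 11.2 CPM without (0Q; SD, n = 3 each).

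Foxm1 and Mybl2 encode transcription factors that switch on the late cell cycle genes, and both were present at low levels. Foxm1 had 16.7, 13.5 and 11.1 CPM in the 100Q libraries, against 14.9, 14.4 and 3.89 CPM in the 0Q libraries, and Mybl2 had 3.802, 8.43 and 3.17 CPM in the 100Q libraries, against 3.59, 5.5 and 4.17 CPM in the 0Q libraries. A single library stood apart in each, 0Q replicate 3 on the low side for Foxm1 and 100Q replicate 2 on the high side for Mybl2. The log2 fold changes were 0.29 (SE 0.44, 95% interval -0.65 to 1.22) for Foxm1 and 0.19 (SE 0.60, 95% interval -1.07 to 1.45) for Mybl2, so these intervals allow more than 2-fold in one direction for Foxm1 and in both for Mybl2. Without 0Q replicate 3 the Foxm1 value was -0.10.

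**Figure D2:**
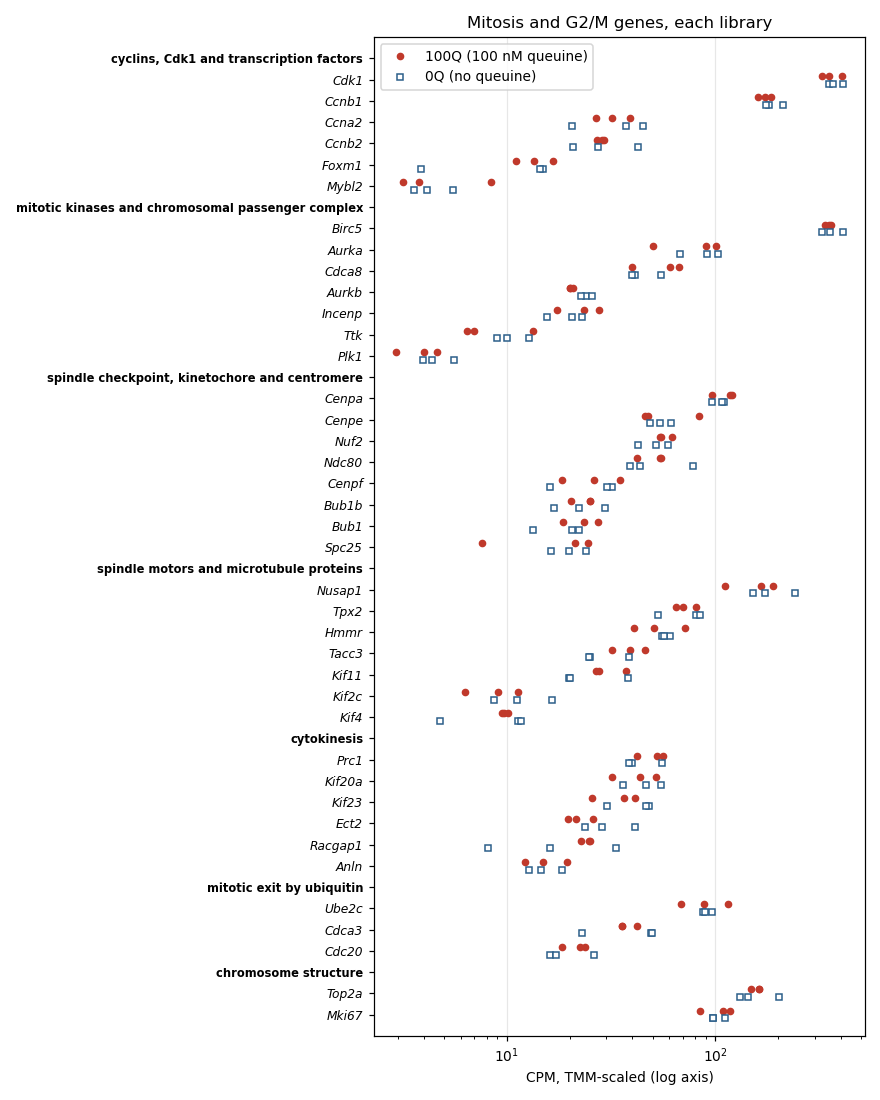
Each row is a gene, grouped by role, and each symbol is its CPM in 1 library on a log axis, with 100Q as filled circles above 0Q as open squares. The groups interleave in every row except that of Aurkb, where the 3 libraries of 100Q lie below those of 0Q.

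The mitotic kinases and the chromosomal passenger complex, which consists of the kinase Aurkb, Incenp, Birc5 and Cdca8, held the only gene whose libraries separated. Aurkb, Aurora B, which frees wrongly attached chromosomes (ENSMUSG00000020897, GRCm39 chromosome 11, 68936467 to 68944764), had 20.2, 20.9 and 20.03 CPM in the 100Q libraries, against 23.98, 22.7 and 25.6 CPM in the 0Q libraries. All 3 libraries of 100Q lay below those of 0Q, and 3.84% of all tested genes showed this order. The log2 fold change of -0.24 (SE 0.28, 95% interval -0.84 to 0.35) did not pass (unadjusted p = 0.403). Birc5, survivin, the subunit that brings the complex to the centromere (ENSMUSG00000017716, GRCm39 chromosome 11, 117740040 to 117746581), had 352, 336 and 359.6 CPM in the 100Q libraries, against 409, 325 and 355 CPM in the 0Q libraries. The 100Q values lay within the range of 0Q and the estimate was -0.05 (SE 0.12). Cdca8, borealin, had 67.3, 60.7 and 40.1 CPM in the 100Q libraries, against 41.2, 39.9 and 54.7 CPM in the 0Q libraries, with 2 libraries of 100Q above all of 0Q and the deepest one below 2 of them. Its log2 fold change of 0.30 (SE 0.24) had the smallest unadjusted p of this role at 0.217. Incenp, the scaffold of the complex, had 22.95 ± 5.18 CPM with queuine (100Q) against 19.7 ± 3.79 CPM without (0Q; SD, n = 3 each). The 4 subunits therefore did not share a direction of the estimates, with Aurkb and Birc5 below 0 and Incenp and Cdca8 above.

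Plk1, the Polo kinase that acts from centrosome to cytokinesis, was one of the least abundant members at 3.99, 2.95 and 4.65 CPM in the 100Q libraries, against 3.97, 4.37 and 5.56 CPM in the 0Q libraries. These CPM values rest on 14 to 88 counts per library, and the log2 fold change of -0.24 (SE 0.59, 95% interval -1.48 to 1.00) leaves changes of 2-fold undecided. Aurka, the Aurora kinase of the spindle poles, had 80.5 ± 26.8 CPM with queuine (100Q) against 87.2 ± 17.9 CPM without (0Q; SD, n = 3 each). Ttk, the kinase Mps1 that starts the spindle checkpoint, had 8.91 ± 3.82 CPM with queuine (100Q) against 10.6 ± 1.95 CPM without (0Q; SD, n = 3 each). Neither difference exceeded the SD within the groups.

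Of the 8 genes of the kinetochore, centromere and spindle checkpoint, 6 had an estimate over 0 and 2 under it, and the median was 0.07. Cenpa, the histone H3 variant that marks centromeres (ENSMUSG00000029177, GRCm39 chromosome 5, 30824121 to 30842921), was the most abundant by CPM, with 96.2, 119.8 and 118 CPM in the 100Q libraries, against 95.9, 110.1 and 108 CPM in the 0Q libraries. The groups overlapped and the log2 fold change was 0.09 (SE 0.16, 95% interval -0.25 to 0.43). Bub1, a checkpoint kinase, had 18.6, 23.4 and 27.5 CPM in the 100Q libraries, against 22.1, 20.6 and 13.3 CPM in the 0Q libraries, with an estimate of 0.31 (SE 0.31) and 0Q replicate 3 below the other libraries. Its partner Bub1b (BubR1), which holds back the ubiquitin ligase until all chromosomes are attached, had 25.1, 20.4 and 24.9 CPM in the 100Q libraries, against 22.1, 16.9 and 29.7 CPM in the 0Q libraries. Its groups overlapped, with a log2 fold change of 0.05 (SE 0.30). The other 5 genes of the role, the kinetochore motor Cenpe, Cenpf and the Ndc80 complex subunits Ndc80, Nuf2 and Spc25, ran from -0.16 for Spc25 to 0.15 for Nuf2. Spc25 had 7.60 CPM in 100Q replicate 1 and 16.4 to 24.4 CPM in the other 5 libraries.

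Among the spindle motors and microtubule proteins 3 estimates lay above 0 and 4 below. Nusap1, which bundles spindle microtubules, was the most abundant by CPM at 165, 111 and 189 CPM in the 100Q libraries, against 241, 174 and 152 CPM in the 0Q libraries. Its libraries were spread widely within both groups, and the log2 fold change was -0.28 (SE 0.20). Tacc3, which with clathrin links kinetochore microtubules, had 39.2, 45.9 and 31.9 CPM in the 100Q libraries, against 25.1, 38.5 and 24.7 CPM in the 0Q libraries. It had the highest estimate of the 39 genes at 0.39 (SE 0.27, 95% interval -0.17 to 0.95), with an unadjusted p of 0.159, and 0Q replicate 2 lay among the 100Q libraries. Leaving out that library gave 0.63, with an unadjusted p of 0.0449 and an edgeR adjusted p of 0.809. This was the highest value with a library left out, and the lowest was 0.25, without 100Q replicate 2. The motors Kif11, Kif2c and Kif4 had estimates of 0.22 (SE 0.30), -0.42 (SE 0.42) and 0.09 (SE 0.44), and Tpx2 and Hmmr, which act on Aurora A and the spindle poles, had -0.01 (SE 0.21) and -0.08 (SE 0.22).

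Cytokinesis genes, which build the central spindle and the contractile ring, included the lowest estimate. Ect2, the exchange factor that activates RhoA at the cleavage site (ENSMUSG00000027699, GRCm39 chromosome 3, 27151371 to 27208029), had 19.6, 21.5 and 26 CPM in the 100Q libraries, against 41.2, 28.6 and 23.6 CPM in the 0Q libraries. The groups overlapped only through 0Q replicate 3, which lay between 100Q replicates 2 and 3. The log2 fold change was -0.47 (SE 0.29, 95% interval -1.08 to 0.13) with an unadjusted p of 0.119, the smallest of the 39, and it was -0.22 without 0Q replicate 1. Prc1, which bundles the microtubules of the central spindle, had 42.2, 52.7 and 56.3 CPM in the 100Q libraries, against 55.7, 39.9 and 38.6 CPM in the 0Q libraries. Its groups overlapped, with an estimate of 0.17 (SE 0.23). Racgap1, the partner of Kif23 in centralspindlin, had 24.2 ± 1.26 CPM with queuine (100Q) against 19.3 ± 13.01 CPM without (0Q; SD, n = 3 each). Its value rests on the 0Q libraries, which ran from 8.12 to 33.6 CPM, and the estimate of 0.32 (SE 0.39) was -0.06 without 0Q replicate 1 and 1.01 without 0Q replicate 2, with edgeR adjusted p-values of 0.999 and 0.775. The edgeR unadjusted p of Racgap1 without 0Q replicate 2 was 0.0197. Kif23, Kif20a and Anln had -0.27 (SE 0.26), -0.10 (SE 0.25) and 0.04 (SE 0.34).

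Mitosis ends when cyclin B and securin are tagged with ubiquitin. Ube2c, the ubiquitin-conjugating enzyme of that step, had 68.2, 115 and 87.9 CPM in the 100Q libraries, against 87.6, 89.6 and 96.7 CPM in the 0Q libraries. The 3 libraries of 0Q lay inside the wider range of 100Q, and the log2 fold change was -0.01 (SE 0.19, 95% interval -0.42 to 0.39). Cdc20, the coactivator of the ligase, had 18.4, 22.5 and 23.7 CPM in the 100Q libraries, against 16.1, 26.2 and 17.2 CPM in the 0Q libraries. The 100Q libraries lay within the range of 0Q, with an estimate of 0.12 (SE 0.31). Cdca3, which takes part in degradation of the kinase Wee1, had 37.8 ± 3.73 CPM with queuine (100Q) against 40.5 ± 15.1 CPM without (0Q; SD, n = 3 each).

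The common markers of dividing cells had close levels in the groups. Mki67, the antigen Ki-67 that coats mitotic chromosomes (ENSMUSG00000031004, GRCm39 chromosome 7, 135291513 to 135318299), had 84.6, 109 and 118 CPM in the 100Q libraries, against 97.1, 112 and 97.8 CPM in the 0Q libraries, with both the lowest and the highest library in 100Q. Top2a, the topoisomerase that untangles sister chromatids (ENSMUSG00000020914, GRCm39 chromosome 11, 98883769 to 98915062), had 149, 162 and 163 CPM in the 100Q libraries, against 202, 143 and 132 CPM in the 0Q libraries, with both extremes in 0Q. The 95% intervals put 100Q at 0.791 to 1.31 times 0Q for Mki67 and at 0.781 to 1.26 times for Top2a.

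Precision followed abundance. The 95% interval lay within 1.5-fold of no change in either direction for 10 of 39 members, against 18% of all tested genes, and within 2-fold for 31 of 39, against 45.3%. Of the 7 members at 100 CPM or more, 6 had an interval within 1.5-fold, and of the 8 under 20 CPM only 2 had one within 2-fold. For Cdk1, Ccnb1, Birc5, Cenpa, Top2a and Mki67 a change of 1.5-fold in mRNA level therefore lay outside the interval, while for Plk1, Mybl2, Foxm1, Ttk, Kif2c, Kif4, Racgap1 and Ect2 a change of 2-fold in at least one direction did not.

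**Figure D3:**
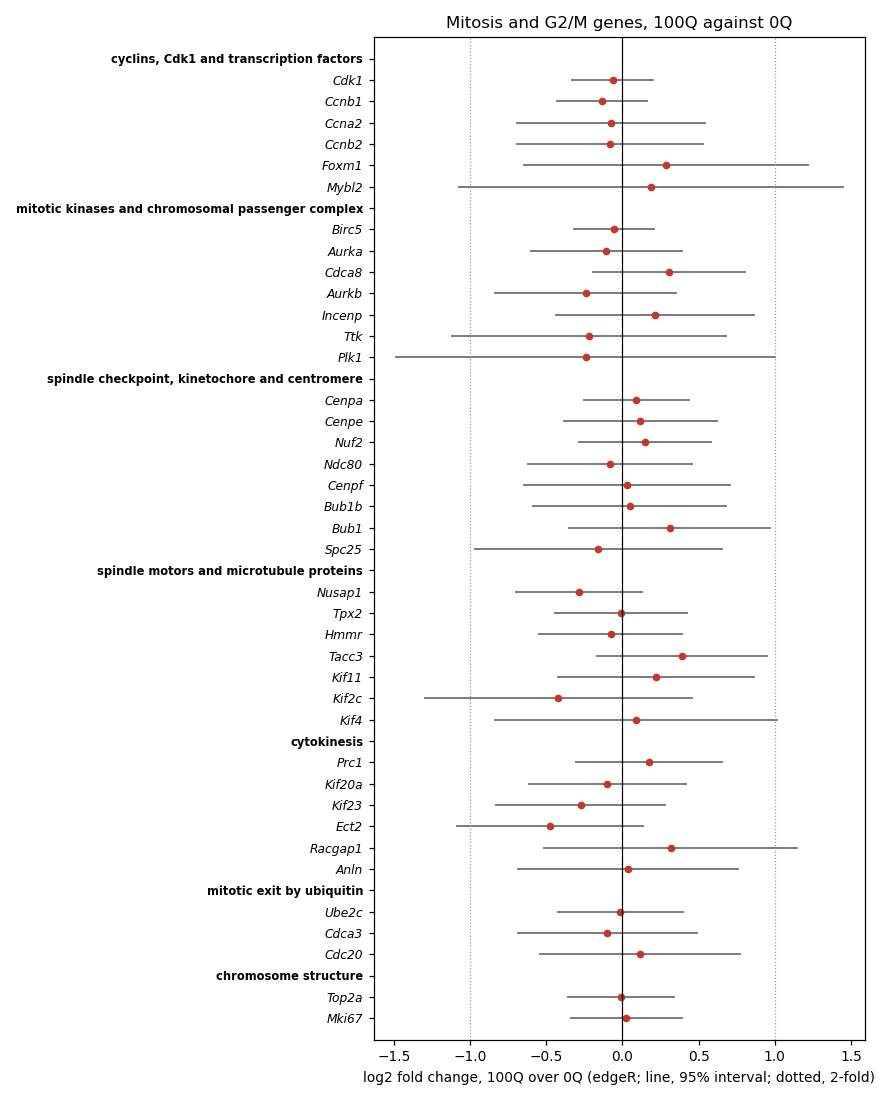
Points are log2 fold changes of 100Q over 0Q by edgeR and lines are 95% intervals, with genes grouped by role and dotted lines at 2-fold. All 39 intervals cross 0, from the lowest estimate at -0.47 (Ect2) to the highest at 0.39 (Tacc3).

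For the ranking that follows, levels were compared between genes per length, as TPM. These are the counts per base of a gene's canonical transcript, scaled to the same total in every library. Elsewhere, unless TPM is given, abundance refers to CPM, which is not corrected for transcript length. Birc5 had the highest level, 494 ± 2.93 TPM in 100Q and 493 ± 28.4 TPM in 0Q (SD, n = 3 each). It was followed by Ube2c with 130.4 ± 37.8 TPM in 100Q and 126 ± 10.6 TPM in 0Q, Cdk1 with 114 ± 12.2 TPM in 100Q and 114 ± 3.82 TPM in 0Q, Cenpa with 106 ± 13.6 TPM in 100Q and 95.8 ± 12.9 TPM in 0Q and Ccnb1 with 94.6 ± 3.52 TPM in 100Q and 100 ± 7.44 TPM in 0Q. The range of the 6 libraries of Birc5 did not reach that of Ube2c, while from Ube2c down to Ccnb1 each gene's range overlapped that of the next. Mki67, whose transcript is long, had only 14.02 ± 2.26 TPM in 100Q and 13.4 ± 2.002 TPM in 0Q, and Plk1, Kif4 and Mybl2 were the lowest, with Plk1 at 2.396 ± 0.4499 TPM in 100Q and 2.78 ± 0.519 TPM in 0Q. In this order 36 of 38 neighbours had overlapping libraries, the exceptions being Birc5 over Ube2c and Ccnb1 over Nusap1.

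Of the mitotic genes outside the list, a larger share had estimates below 0, with none past the test. These were 4 further lists, for the kinetochore and checkpoint, condensin and cohesion, spindle and cytokinesis, and regulators of mitosis, in which 84 of 87 genes were tested. Of the 84, 23 had an estimate over 0 and 61 under it, the median was -0.17 on the log2 scale, and 0 passed. The median stayed between -0.21 and -0.11 when any 1 library was left out and between -0.19 and -0.14 in the other settings, with the smallest size without 0Q replicate 1, where 34 estimates lay over 0 and 50 under it and the median of the regulators alone was 0.0013. Markers of granulocytes and of mast cells and basophils, given above, also had mostly estimates below 0, and their part in this was not tested. Whether these genes differ from the 39 was not tested either. In the list of regulators, Cks2, a Cdk1-binding protein, was the most abundant by CPM at 303 ± 39.3 CPM with queuine (100Q) against 359.7 ± 32.1 CPM without (0Q; SD, n = 3 each), a log2 fold change of -0.24 (SE 0.13). Fbxo5 (Emi1), which inhibits the ubiquitin ligase before mitosis, had the smallest p, with 36.9, 26.96 and 38.4 CPM in the 100Q libraries, against 53.6, 54.3 and 43.9 CPM in the 0Q libraries. The groups of Fbxo5 did not overlap, and its value of -0.57 (SE 0.23, unadjusted p = 0.0247, edgeR adjusted p = 0.999) did not pass. Of the 23 tested regulators 1 had all 100Q libraries above and 2 below, against 4.41% and 3.84% of all tested genes. These counts were 1 and 3 of 28 for the kinetochore and checkpoint, 1 and 2 of 19 for the spindle and cytokinesis. For condensin and cohesion they were 0 and 0 of 14. The most abundant genes by CPM of the other 3 lists were Bub3, Smc1a and Stmn1, with -0.17 (SE 0.16), -0.19 (SE 0.20) and -0.23 (SE 0.15). In the list of spindle and cytokinesis genes the summed CPM was 396, 417 and 414 in 100Q replicates 1, 2 and 3, against 466, 464 and 439 in 0Q replicates 1, 2 and 3, which do not overlap. That separation rests on Stmn1, with 118, 143 and 137 CPM in the 100Q libraries, against 152, 146 and 171 CPM in the 0Q libraries. Without Stmn1 the sums of the groups overlap, with 0Q replicate 3 the lowest. The sums of the other 3 lists overlapped, with 835 to 931 CPM in 100Q against 912 to 1095 CPM in 0Q for the kinetochore, 712 to 885 CPM in 100Q against 748 to 949.8 CPM in 0Q for condensin and cohesion, and 999 to 1134 CPM in 100Q against 1096 to 1270.2 CPM in 0Q for the regulators. Outside the regulators, the gene with the smallest p was Mis12 for the kinetochore and checkpoint, with -0.71 (SE 0.34). It was Ncaph for condensin and cohesion, with -0.39 (SE 0.23), and Iqgap3 for the spindle and cytokinesis, with -1.12 (SE 0.64).

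The genes that hold cells back from division had a median of 0.12, with 8 of 11 tested estimates above 0 and 0 past the test. That median rests on single libraries, since it was 0.0145 without 0Q replicate 3, with 6 estimates over 0 and 5 under it, 0.0758 without 0Q replicate 1, 0.0503 without 100Q replicate 2 and 0.1989 without 100Q replicate 3, and it was 0.0338 by limma-voom. Btg1 was the most abundant by CPM at 127 ± 21.7 CPM with queuine (100Q) against 122 ± 20.1 CPM without (0Q; SD, n = 3 each). Cdkn2c, the Cdk inhibitor p18, had the smallest p with 14.1, 2.74 and 8.67 CPM in the 100Q libraries, against 13.4, 18.2 and 20.6 CPM in the 0Q libraries (unadjusted p = 0.0410). Genes of DNA replication and the G1/S transition, the part of the cycle before mitosis, had 13 of 35 estimates over 0 and 22 under it, the median was -0.05, and 0 passed. Without 100Q replicate 2 the median was -0.0118, with 16 estimates over 0 and 19 under it, and without 0Q replicate 1 it was -0.0150. Without 100Q replicate 3 it was -0.1120, without 0Q replicate 2 it was -0.0954 and without 0Q replicate 3 it was -0.0783. Pcna, the replication clamp, was the most abundant of them by CPM with a log2 fold change of -0.05 (SE 0.12), and Rrm2 had the smallest p with -0.24 (SE 0.14). The summed CPM of the mitosis genes was 1.17, 1.23 and 1.21 times that of the replication genes in 100Q replicates 1, 2 and 3 and 1.15, 1.18 and 1.13 times in 0Q replicates 1, 2 and 3. Both sums were highest in 0Q replicate 1 and lowest in 100Q replicate 2, and the ratios of the groups overlapped.

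Because the series concerns codons read by queuosine tRNAs, the coding sequences of the 39 genes were examined for them. These codons have the form NAU or NAC and encode Asn, Asp, His and Tyr. In the 39 genes they made up a median of 12.9% of codons, and there were 1999 NAU and 1970 NAC codons in all, so that NAU made up 50.4%. The median share of NAU per gene was 50.9% in the 37 members with at least 20 such codons, and 44% in the 8702 tested genes that met the same minimum, whose quartiles were 35% and 53.7%. The members differed widely by role. The median was 55.4% for the kinetochore and checkpoint genes and 54.2% for the spindle motors and microtubule proteins, but 32.9% for the cyclins, Cdk1 and transcription factors and 29.7% for the mitotic kinases and passenger proteins. Spc25 used NAU in 24 of 37, or 64.9%, and Top2a in 148 of 239, or 61.9%, whereas Aurkb used it in 11 of 48, or 22.9%, and Cdk1 in 15 of 49, or 30.6%. The members' NAU share moved with the share of U at their other codons ending in U or C, with a Spearman rho of 0.74 across the 37 genes, and with the number of codons (rho 0.57), which are descriptions across genes that share base composition. For the number of codons the rho across the 8702 tested genes was 0.14. The following stretches of 40 codons, read from the GRCm39 genome as DNA, are those with the most queuosine codons in Spc25 and Top2a, which have high NAU shares, and in Cdk1 and Aurkb, which have low ones. Capitals mark the Asn, Asp, His and Tyr codons, in which a final T stands for NAU and a final C for NAC.
Spc25 codons 1 to 40: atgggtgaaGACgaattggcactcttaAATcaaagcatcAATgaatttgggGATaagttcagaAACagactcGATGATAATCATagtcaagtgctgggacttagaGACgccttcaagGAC
Top2a codons 520 to 559: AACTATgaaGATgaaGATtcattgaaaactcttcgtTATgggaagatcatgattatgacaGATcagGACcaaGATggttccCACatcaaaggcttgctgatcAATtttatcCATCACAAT
Cdk1 codons 252 to 291: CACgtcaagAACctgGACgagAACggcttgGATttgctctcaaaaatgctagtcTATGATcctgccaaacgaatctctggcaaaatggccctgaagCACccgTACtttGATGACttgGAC
Aurkb codons 122 to 161: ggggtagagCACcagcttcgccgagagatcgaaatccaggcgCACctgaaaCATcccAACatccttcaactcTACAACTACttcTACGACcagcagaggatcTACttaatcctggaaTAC
In these stretches Spc25 had 7 NAU and 4 NAC codons, Top2a 9 and 4, Cdk1 4 and 8, and Aurkb 1 and 10.

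The log2 fold changes with queuine were then read against this codon choice, without a test of a difference. The 19 members over 50% NAU had 10 estimates over 0 and 9 under it, and a median log2 fold change of 0.03. The 20 members under 50% had 8 and 12, and a median of -0.06. For all tested genes with at least 20 such codons these medians were 0.00 over and 0.03 under 50%. Across the 37 members the Spearman rho between log2 fold change and NAU share was 0.05, and across the 8702 genes it was -0.04. Weighted by counts per base of transcript, the members' mRNA had a NAU share of 43.6%, 44.1% and 44.8% in 100Q replicates 1, 2 and 3 and of 44.5%, 44.3% and 43.1% in 0Q replicates 1, 2 and 3. The groups overlapped, and averaged 44.1% ± 0.621 over the 100Q libraries, against 43.96% ± 0.749 over the 0Q libraries (SD, n = 3 each).

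**Figure D4:**
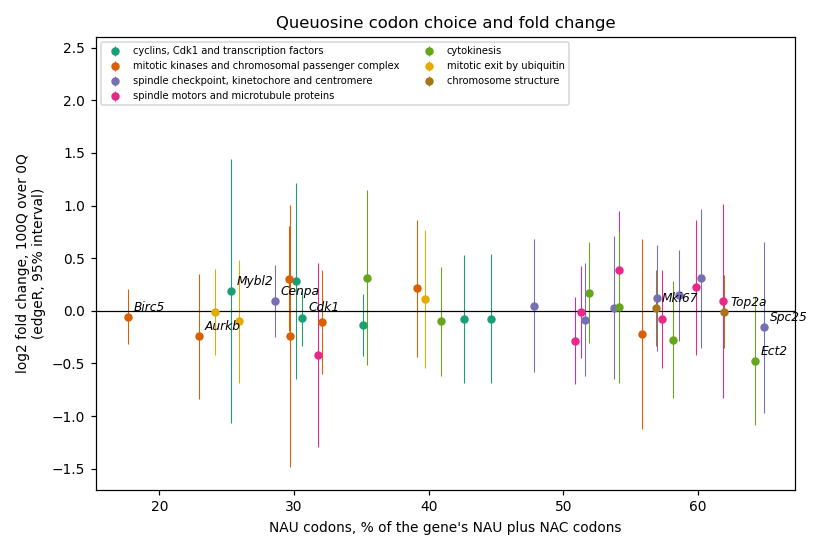
Each point is a gene, with the NAU share of its NAU plus NAC codons in percent on the horizontal axis and its log2 fold change of 100Q over 0Q with the 95% interval on the vertical axis, coloured by role. The genes span shares from 17.6% (Birc5, on 17 such codons) to 64.9% (Spc25). The 3 genes with the lowest shares (Birc5, Aurkb and Ube2c) and the 3 with the highest (Spc25, Ect2 and Top2a) have estimates below 0, with estimates on both sides in between. Of these, Birc5 (-0.05), Ube2c (-0.01) and Top2a (-0.01) lie close to 0 and change sign in some settings.

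Many but not all of the 39 promoters held sequence elements known from late cell cycle genes. Such genes are known to carry a cell cycle genes homology region (CHR), bound by the MuvB complexes with B-Myb and FoxM1, together with CCAAT boxes bound by NF-Y, while many replication genes carry E2F sites. The window from 250 bases before to 50 bases after the start of the canonical transcript was searched on both strands for CHR (TTTGAA or TTCGAA), the CCAAT box (CCAAT) and an E2F site (TTTGGCGC or TTTCGCGC). CHR letters occurred in 21 of 39 members (53.8%), against 18.7% of the windows of all 21691 protein-coding genes, and at least 1 CCAAT box in 26 (66.7%), against 40%. Both occurred in 18 members (46.2%), against 8.24% of all protein-coding genes and 6.93% of the tested ones. The E2F letters occurred in 1 member (2.56%), Cdk1, against 1.01%. None of the 3 motifs was found in 10 members, Foxm1, Birc5, Mybl2, Nuf2, Nusap1, Tpx2, Aurka, Ccna2, Kif2c and Tacc3. Of the 35 DNA replication and G1/S genes, 20 had a CCAAT box (57.1%), 4 had CHR (11.4%) and 11 had the E2F letters (31.4%). At least 2 CCAAT boxes stood in 43.6% of the members, 34.3% of the replication genes and 12.7% of all protein-coding genes. Of the 29 CHR matches in the members 18 began within the 50 bases from the start site, and 1 pair of matches of different motifs overlapped. Such matches are letters only and were not tested for binding. Below are the 150 bases before the start of 4 members that hold both elements there, with the CHR and CCAAT letters of either strand in capitals.
Cdk1 promoter, chr10:69188769-69188918, minus strand: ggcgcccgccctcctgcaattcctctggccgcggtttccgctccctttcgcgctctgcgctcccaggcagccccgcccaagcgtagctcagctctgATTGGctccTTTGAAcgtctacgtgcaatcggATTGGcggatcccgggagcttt
Ccnb2 promoter, chr9:70328875-70329024, minus strand: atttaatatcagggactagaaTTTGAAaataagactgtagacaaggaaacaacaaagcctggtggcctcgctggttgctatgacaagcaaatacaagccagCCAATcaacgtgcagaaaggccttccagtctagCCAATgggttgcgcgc
Kif23 promoter, chr9:61854074-61854223, minus strand: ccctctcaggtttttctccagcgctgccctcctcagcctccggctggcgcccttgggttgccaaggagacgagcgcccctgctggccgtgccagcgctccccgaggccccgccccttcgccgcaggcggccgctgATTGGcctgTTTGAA
Top2a promoter, chr11:98915042-98915191, minus strand: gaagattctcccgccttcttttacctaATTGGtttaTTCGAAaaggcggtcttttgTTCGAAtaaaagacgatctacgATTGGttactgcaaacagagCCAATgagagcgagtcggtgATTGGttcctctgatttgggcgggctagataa
Cdk1 has its CHR letters between a pair of CCAAT boxes in reverse orientation, and in Kif23 they end at the last base before the start. The 18 members with both elements had 8 estimates over 0 and 10 under it, and the 21 others 10 and 11. The median log2 fold change was -0.01 in both sets.

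**Figure D5:**
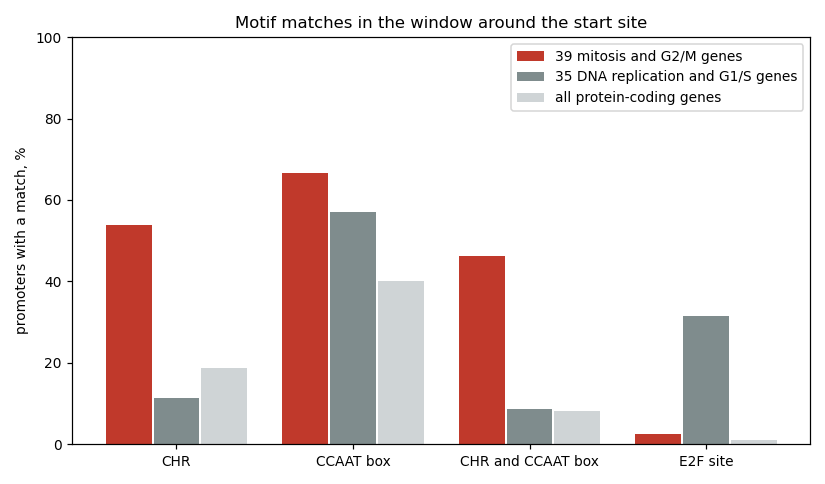
Bars give the percentage of promoter windows with at least 1 match to each motif in the 39 mitosis and G2/M genes, the 35 DNA replication and G1/S genes and all protein-coding genes. CHR letters stand in 53.8%, 11.4% and 18.7% of these windows, and E2F letters in 2.56%, 31.4% and 1.01%.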

How the data were processed

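The submitters' processing notes name FastQC, STAR and RSEM and the build mm39 (GRCm39). The authors deposited unnormalized expected counts for all 6 libraries as 1 gene table. For tool versions, annotation release and strandedness, nothing was given in the sources used here. RSEM divides ambiguous reads, and 23 of the 39 genes had a non-whole value in some library. Since strand is not stated, 13 members whose gene spans overlap an expressed gene on the opposite strand could share reads with it, among them Kif4 with Pdzd11, Cdc20 with Elovl1 and Ccna2 with Exosc9.

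Counts were rounded and tested with edgeR 4.0.16 in R 4.3.3 (filterByExpr, TMM, robust glmQLFit, glmQLFTest for 100Q over 0Q), with Benjamini-Hochberg adjustment over all 10554 tested genes and a threshold of 0.05. Standard errors are the absolute log2 fold change over the root of F. CPM used the tested genes' totals times the TMM factors, and 3 counts correspond to 0.159 to 0.833 CPM, which covers counting error only. Symbols, canonical transcripts, coding sequences and start sites came from GENCODE mouse release 39 on GRCm39, and 502 identifiers had no match. The fit was tested on simulated data in which the changed genes differed by more than 2-fold. That simulation did not test how smaller changes, such as the members' estimates, are found. The members and the other gene lists were chosen with earlier results of these data known. Values in every library are given for 12 fixed genes and for the most abundant gene and the gene with the smallest p in each of 7 roles. Alternatives were DESeq2 1.42.0, limma 3.58.1 with voom, other scalings and filters, a replicate block, and fits that omit 1 library.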

Additional observations from a re-analysis of the deposited data

How the results depend on the processing

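Over the 39 genes, 0 passed in every setting tried, which were DESeq2, limma-voom, median-of-ratios scaling, library totals, no filter, a filter of 10 CPM, the replicate block and each library left out. Over all genes the count of 0 ranged from 0 to 2 with a library left out, 2 without 0Q replicate 1 and 1 without 0Q replicate 2, and the cause was not tested. At the filter of 10 CPM 35 members were left. Without 0Q replicate 2, 2 of 39 members, Racgap1 and Tacc3, had an edgeR unadjusted p under 0.05. So did 662 of the 10975 genes tested in that fit. In each other setting 0 members had such a p. The members' median of -0.01 lay between -0.0909, without 0Q replicate 2, and 0.0802, without 100Q replicate 1, over omitted libraries and from -0.02 to 0.05 in the other settings, so its sign is not settled. The difference in summed CPM lay between -150.6, without 100Q replicate 3, and 37.9, without 0Q replicate 1. With library totals alone in place of TMM this difference was -0.0192, against -65.15 with TMM, so its size depends on the scaling. Of 234 log2 fold changes of members with a library left out 42 changed sign, of 230 in the other settings 17 did, and 0 passed. With the replicate number as a block 0 members passed, 2 of 39 changed sign and the median was 0.0018. Same-numbered libraries had deviations correlated at 0.047, 0.18 and -0.054, so the numbers are not shown to pair them. The reading of the other mitotic lists across settings was added after seeing the data, and 0 of their genes passed in any setting. Members under 20 CPM had a median interval half-width of 0.911 on the log2 scale, against 0.343 for those at 100 CPM or more.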

Other observations

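The mRNA levels per length of proteins that work in the same complex were far apart in some complexes and close in others. In the chromosomal passenger complex Birc5 stood at 494 ± 2.93 TPM in 100Q and 493 ± 28.4 TPM in 0Q, Cdca8 at 47.8 ± 13.1 TPM in 100Q and 37 ± 6.34 TPM in 0Q, Aurkb at 14.4 ± 0.841 TPM in 100Q and 16.4 ± 0.891 TPM in 0Q and Incenp at 5.13 ± 1.27 TPM in 100Q and 4.26 ± 1.02 TPM in 0Q (SD, n = 3 each). In the Ndc80 complex, by contrast, Ndc80 had 31.7 ± 3.73 TPM in 100Q and 32.1 ± 11.3 TPM in 0Q, Nuf2 31.1 ± 2.52 TPM in 100Q and 26.9 ± 4.27 TPM in 0Q and Spc25 18.1 ± 9.31 TPM in 100Q and 19.4 ± 3.05 TPM in 0Q, with Spc24, a gene outside the 39, lower at 8.01 ± 1.599 TPM in 100Q and 11.3 ± 0.519 TPM in 0Q. Of the centralspindlin partners, Kif23 had 13.9 ± 2.97 TPM in 100Q and 16.5 ± 4.74 TPM in 0Q, and Racgap1 had 11.4 ± 0.295 TPM in 100Q and 9.06 ± 6.69 TPM in 0Q. Cks2, the small partner of Cdk1, had 608 ± 71.4 TPM in 100Q and 694 ± 46.9 TPM in 0Q, above Cdk1 itself in both groups. These genes were chosen after their values were seen, and levels depend on the canonical transcript length, which is 980 bases for Birc5, 6228 for Incenp, 692 for Cks2 and 4375 for Cdk1.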
